A study of Rattus norvegicus with 28 samples.

Results

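The genes described here are 10 members of the BCL2 family, the proteins that decide whether the outer membrane of the mitochondria stays closed. They were taken from the deposited expression table by symbol, with the transcript of highest mean kept for each, and they make up 10 of 17455 symbols. They are the pro-survival genes Bcl2, Bcl2l1 and Mcl1, the effector genes Bax and Bak1, and the BH3-only genes Bid, Bad, Bcl2l11, Bbc3 and Pmaip1. Their transcripts were measured by RNA-seq of whole cultures of INS-1, an insulin-producing line from a rat insulinoma, in which fewer cells of a kind and less RNA per cell cannot be told apart. The cells were WT or had been edited with CRISPR so that Med14, which belongs to the Mediator complex of transcription, carries the S983A change, and both were kept in serum-free medium before treatment. Cells of each genotype were left untreated (CON) or were exposed for 1, 8 or 16 h to exendin-4 (Ex-4, 10 nM), which stimulates the GLP-1 receptor, or to forskolin (FSK, 10 µM), a direct activator of adenylyl cyclase. This gave 14 groups of 2 libraries. A knock-in line grown from sorted single cells is a clone. The study's methods name a pair of independently made knock-in lines for its experiments, but neither they nor the labels say which line gave each library, so genotype and clone cannot be told apart. A single CON group per genotype served all 3 hours, so treatment and time after the change of medium cannot be told apart.

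Pro-survival proteins bind and hold the effectors, which otherwise assemble into pores and release cytochrome c. BH3-only proteins occupy the pro-survival proteins or activate the effectors, and several are controlled through the amount of their transcript. In beta cells, GLP-1 receptor agonists and cAMP are known for protecting against cell death. The data below concern transcripts alone.

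The libraries held 42551133 to 57231981 fragments, and 92635979 in the deepest, the second replicate of Med14 S983A given FSK for 8 h. Among the beta cell markers, Ins1 lay between 33720 and 67830 TPM, a measure of transcripts relative to all those of a library, and Mafa was not found in the table. Of the alpha cell markers, Irx2 was at 0 in all 28 libraries. Gcg was nevertheless present in every library, at 166 and 169 TPM in untreated WT, 6.09 and 6.56 in untreated Med14 S983A and up to 1345 after 8 h of FSK in WT. Its part in the results was not tested. The acinar list summed to 0.483 to 14.8 TPM over the libraries, with Prss1 and Amy2a3 at 0 throughout, and it was lower in Med14 S983A than in WT at every condition. The fibroblast list summed to 0.919 to 4.07 TPM and the leukocyte list to 0.088 to 1.75 TPM, with Col1a2 at 0 throughout. Med14 itself stood at 21.5 and 20.3 TPM in untreated WT and at 19.6 and 20.3 in untreated Med14 S983A, which does not check the genotype labels since the change is a single residue.

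All members but Pmaip1 passed the filter of a mean of at least 1 TPM, that is 9 of 10. Levels are in TPM, which divides by transcript length and so allows genes to be compared. In WT CON, Bax was the highest at 226 ± 5.04 TPM (SD, n = 2), followed by Bad at 126 ± 0.589, Bak1 at 78.3 ± 1.92, Mcl1 at 76.7 ± 0.335 and Bcl2l1 at 63.4 ± 0.0106. A second tier held Bcl2l11 at 18.5 ± 1.05 TPM, Bbc3 at 16.9 ± 1.40, Bid at 15.04 ± 0.756 and Bcl2 at 9.79 ± 0.916. The libraries of Bcl2l11 and Bbc3 overlapped, while all other neighbours in this order were apart. In Med14 S983A CON the order differed in the upper tier, where Bcl2l1 (85.9 ± 0.259 TPM, n = 2) stood above Bak1 (67.4 ± 7.07) and Mcl1 (55.0 ± 9.36). It differed in the lower tier too, where Bid (16.35 TPM) stood just above Bcl2l11 (16.15) without overlap, while Bcl2l11 and Bbc3 again overlapped. Bbc3 had the widest range of group means, 2.25 on the log2(TPM + 1) scale, followed by Bcl2l11 with 1.57 and Bcl2 with 1.55. Bak1 had the narrowest, 0.86.

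**Figure D1:**
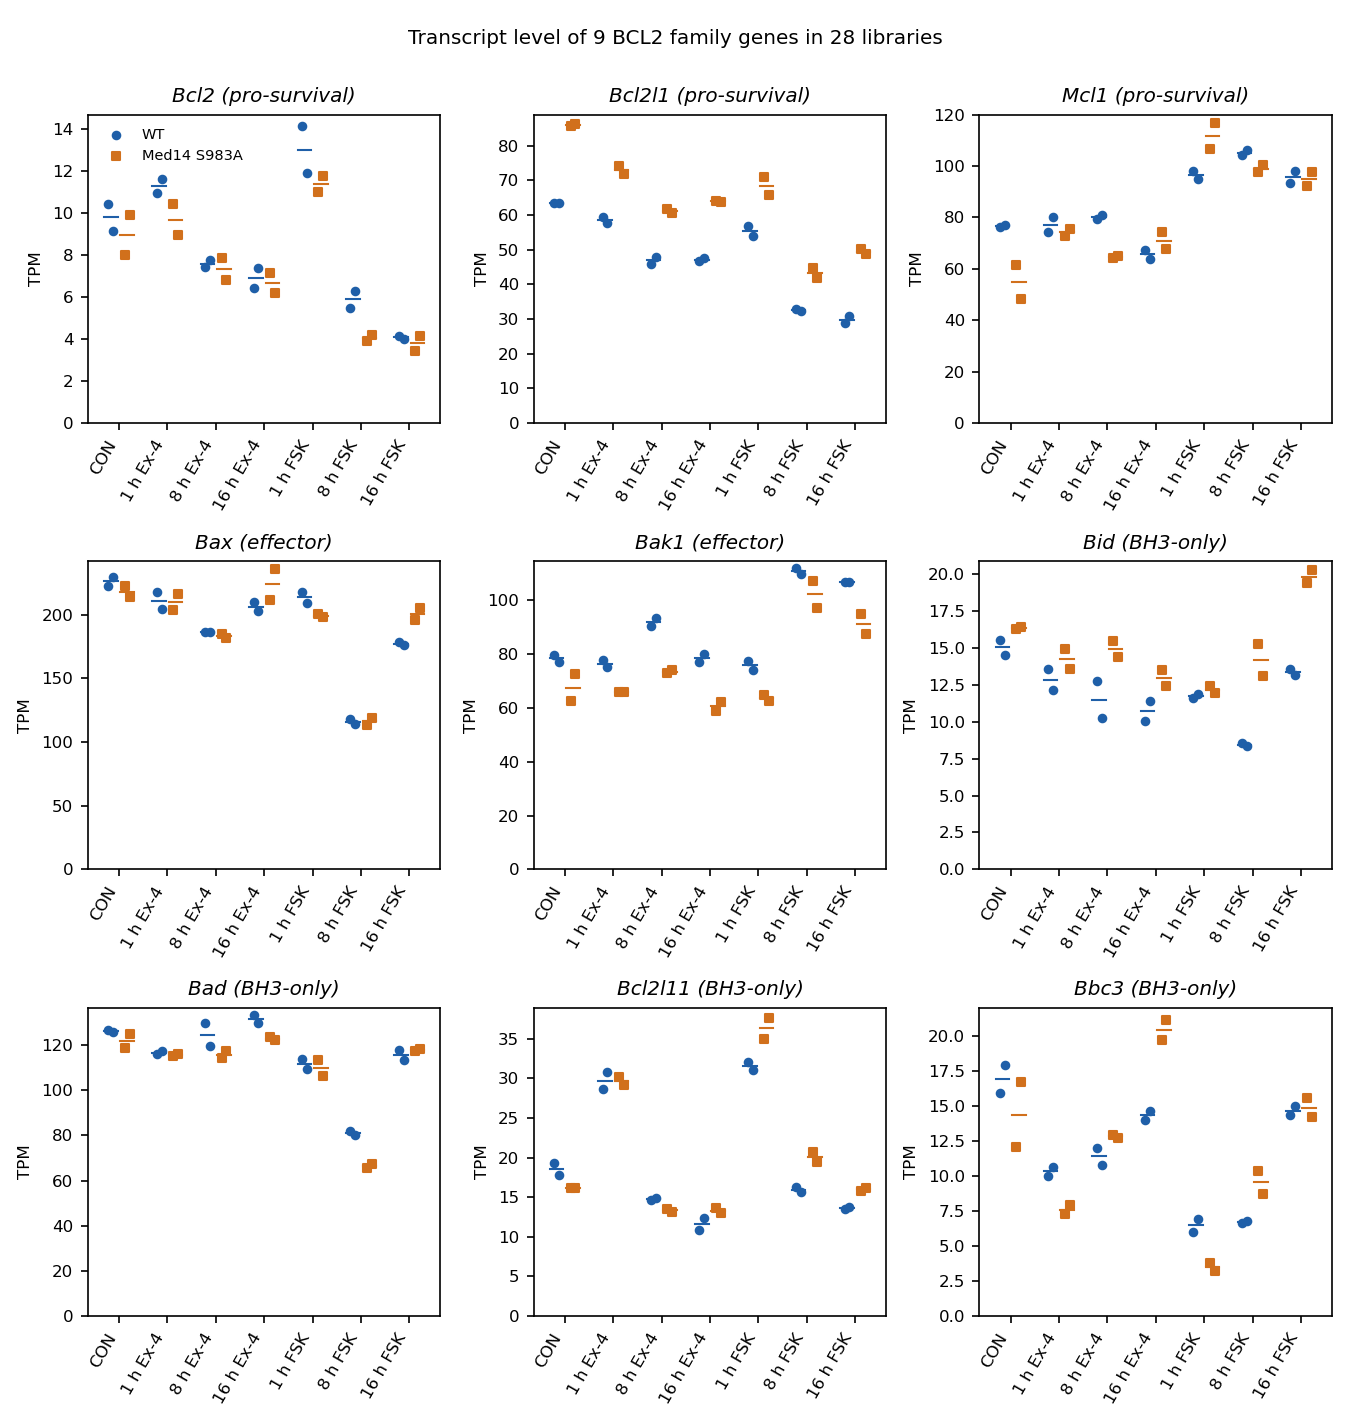
Level in TPM (vertical axes, from 0) of 9 BCL2 family genes by condition (horizontal axes) in WT (blue circles) and Med14 S983A (orange squares), with each point 1 library and each short line the mean of 2. Bcl2l11 peaks at 1 h of Ex-4 or FSK in both genotypes, Bax is lowest at 8 h of FSK, and Bcl2l1 falls from 63.4 TPM in WT CON to 29.8 TPM at 16 h of FSK.

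Promoter sequences were looked up for the genes that moved at 1 h and for the gene that was never seen, because cAMP acts on promoters through the cAMP response element (CRE). Of the 10 members, 8 had an entry in the RefSeq promoter table of build GRCr8, each 250 bases before to 50 bases after the start of the gene, and Bax and Bbc3 had none. Neither the full CRE (TGACGTCA) nor the AP-1 motif (TGANTCA) was found in any of the 8, on either strand. The CRE core TGACG, which is contained in the full CRE, was found in Mcl1 and Pmaip1 alone, and the FOXO motif TGTTTAC in Bad and Bcl2l11 alone. Of 33469 promoters of this length, 21.2% held the CRE core, 3.78% the FOXO motif, 1.83% the full CRE and 7.33% the AP-1 motif. A match is a description of letters and not a site of binding. In the sequences below, capitals mark the CRE core in Mcl1 and Pmaip1, read on the other strand as CGTCA, and the FOXO motif in Bcl2l11, read on the other strand as GTAAACA. The Mcl1 window is GRCr8 chr2:185907918-185908217, the Pmaip1 window chr18:62255720-62256019 and the Bcl2l11 window chr3:135819792-135820091, all on the plus strand.
Mcl1: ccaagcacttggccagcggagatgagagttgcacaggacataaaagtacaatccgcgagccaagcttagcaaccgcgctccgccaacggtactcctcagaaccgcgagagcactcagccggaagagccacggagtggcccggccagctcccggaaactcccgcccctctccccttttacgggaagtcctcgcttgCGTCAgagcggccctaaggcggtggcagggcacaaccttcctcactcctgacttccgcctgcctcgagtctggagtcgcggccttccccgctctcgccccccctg
Pmaip1: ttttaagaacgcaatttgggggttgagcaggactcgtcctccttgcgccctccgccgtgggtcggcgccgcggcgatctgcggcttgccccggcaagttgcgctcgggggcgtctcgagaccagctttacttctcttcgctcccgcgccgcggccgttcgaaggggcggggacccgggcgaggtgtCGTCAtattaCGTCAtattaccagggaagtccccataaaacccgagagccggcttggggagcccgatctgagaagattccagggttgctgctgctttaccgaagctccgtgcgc
Bcl2l11: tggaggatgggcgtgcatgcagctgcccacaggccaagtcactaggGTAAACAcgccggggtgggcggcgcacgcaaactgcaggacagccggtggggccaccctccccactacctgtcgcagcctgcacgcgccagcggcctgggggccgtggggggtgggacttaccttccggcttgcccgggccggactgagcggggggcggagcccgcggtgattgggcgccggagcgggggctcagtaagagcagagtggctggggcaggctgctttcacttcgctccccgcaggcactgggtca

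Each treated group was compared with CON of its genotype to find which members respond to the GLP-1 receptor agonist and to direct activation of adenylyl cyclase. Log2(TPM + 1) values were tested with limma across 10275 genes, and calls required both a fold above 1.5 and an adjusted p below 0.05. Fold changes on this scale understate those of low genes. The study's methods call the replicates biological, but the labels do not say whether they came from separate cultures, so the p-values measure only the spread between these libraries, which may be technical. Ex-4 moved 2 of 9 members in WT at 1 h (1 higher, 1 lower), against 2.87% of all genes, and 1 of 9 at 16 h (lower), against 11.8%. At 16 h in WT edgeR and DESeq2, with either kind of size factor, called 0 members. In Med14 S983A Ex-4 moved 2 of 9 at 1 h (1 higher, 1 lower), against 3.04%. After 8 h of Ex-4 limma called 0 of 9 members in WT (background 9.6%) and 0 in Med14 S983A (6.3%), and after 16 h 0 in Med14 S983A (11.9%). At an unadjusted p under 0.05 these 3 comparisons had 7, 6 and 7 members, and edgeR and DESeq2, with either kind of size factor, also called 0 in each. An adjusted p under 0.05 alone was met there by 7, 5 and 7 members, and by 6082, 5197 and 6359 of all genes. FSK moved 2 of 9 members in WT at 1 h (1 higher, 1 lower), 6 at 8 h (all lower) and 2 at 16 h (both lower), against backgrounds of 7.47%, 43.6% (34.8% lower) and 34.5% (24.1% lower). In Med14 S983A it moved 3 of 9 at 1 h (2 higher, 1 lower), 6 at 8 h (2 higher, 4 lower) and 3 at 16 h (1 higher, 2 lower), against 10.4%, 46.1% and 33.3%. At 8 and 16 h of FSK a change of this size was thus common among all genes. The 3 hours of a treatment, and Ex-4 and FSK, share their CON libraries.

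**Figure D2:**
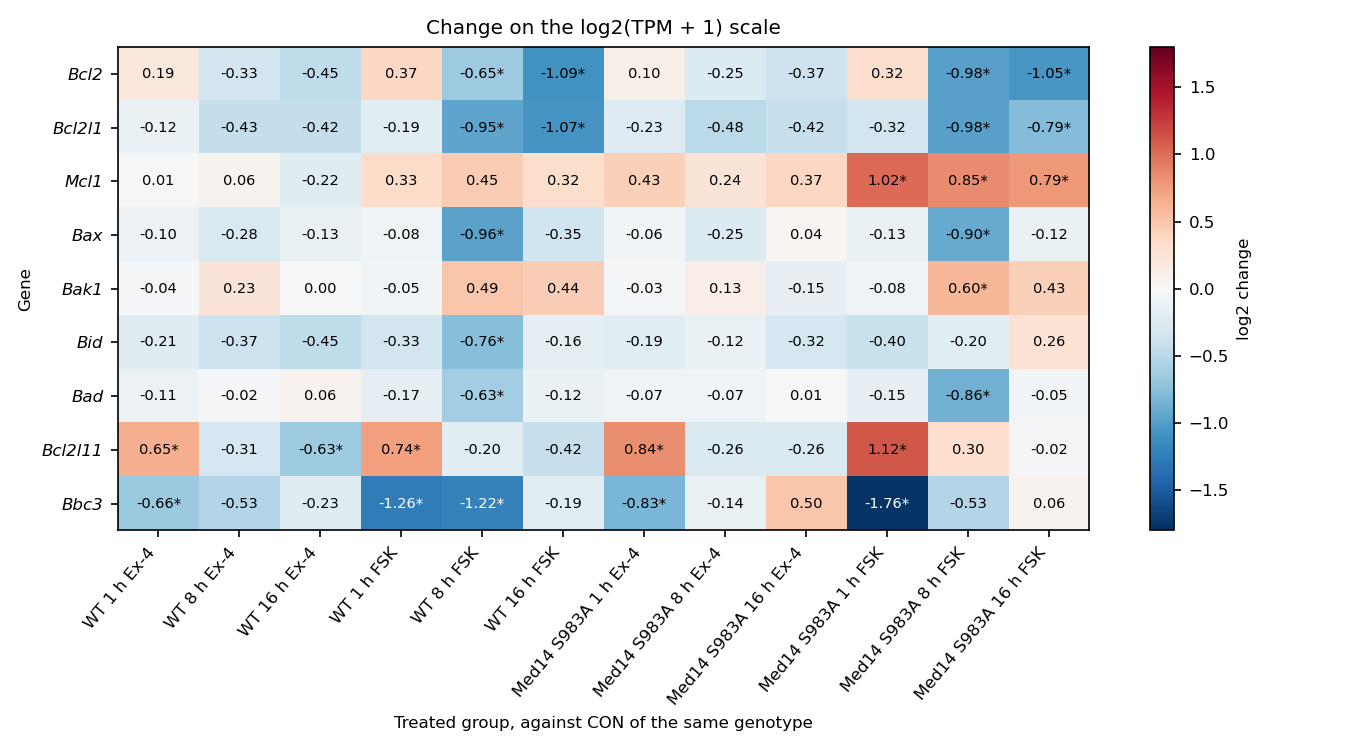
Change on the log2(TPM + 1) scale of 9 members (rows) in each treated group against CON of its genotype (columns), coloured from blue (lower) to red (higher), with an asterisk where the adjusted p was under 0.05 and the fold above 1.5. The called rises are those of Bcl2l11 at 1 h, from 0.65 to 1.12, those of Mcl1 after FSK in Med14 S983A, from 0.79 to 1.02, and that of Bak1 at 8 h of FSK in Med14 S983A, at 0.59.

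Among the pro-survival genes, Mcl1 (NM_021846, rn6 chromosome 2, 197786212 to 197788992) encodes a short-lived protein. In WT it was at 76.4 and 76.9 TPM in CON, 98.2 and 94.9 after 1 h of FSK, 104 and 106 after 8 h and 93.3 and 98.2 after 16 h. In Med14 S983A it was at 61.6 and 48.4 TPM in CON, 107 and 117 after 1 h of FSK, 97.5 and 100 after 8 h and 92.2 and 97.6 after 16 h. All 6 pairs of FSK libraries were above the CON libraries of their genotype. The rise in WT stayed under 1.5-fold, at 0.33 ± 0.07 (SE) on the log2 scale at 1 h (limma adjusted p 0.000394), 0.45 ± 0.07 at 8 h (1.72e-06) and 0.32 ± 0.07 at 16 h (0.000207). For Med14 S983A the rise was called at each hour, at 1.02 ± 0.07 (limma adjusted p 5.31e-12), 0.85 ± 0.07 (2.57e-11) and 0.79 ± 0.07 (1.55e-10). The FSK levels of the genotypes lay closer together than their CON levels. Under Ex-4 no hour was called in either genotype. In WT the Ex-4 libraries lay between 64.0 and 80.9 TPM, around the CON level, and in Med14 S983A between 64.0 and 75.3 TPM, above both CON libraries.

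Bcl2l1 (NM_001033670, rn6 chromosome 3, 148259594 to 148313810), whose main product is Bcl-xL, showed the clearest fall. Its level in WT was 63.43 and 63.45 TPM in CON, 56.7 and 54.0 after 1 h of FSK, 32.7 and 32.2 after 8 h and 28.8 and 30.8 after 16 h. Med14 S983A cells held 85.8 and 86.1 TPM in CON, 71.1 and 65.9 after 1 h of FSK, 44.6 and 41.8 after 8 h and 50.1 and 48.8 after 16 h. Every FSK library was below the CON libraries of its genotype. The change in WT was −0.95 ± 0.05 at 8 h (limma adjusted p 4.28e-16) and −1.07 ± 0.05 at 16 h (5.27e-17), and in Med14 S983A −0.98 ± 0.05 (1.81e-16) and −0.79 ± 0.05 (2.78e-14). Ex-4 lowered it by less than 1.5-fold, by −0.43 ± 0.05 at 8 h (limma adjusted p 1.38e-08) and −0.42 ± 0.05 at 16 h (1.25e-08) in WT, and by −0.48 ± 0.05 (2.31e-09) and −0.42 ± 0.05 (1.45e-08) in Med14 S983A. The table holds 4 transcripts of this gene that share exons, with means of 19.1 to 55.6 TPM, and at 16 h of FSK in WT their changes lay between −0.99 and −1.07. Which splice form is meant cannot be read from these transcripts, since reads of shared exons count for each.

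Bcl2 (NM_016993, rn6 chromosome 13, 26605426 to 26769374), the family's founding pro-survival gene, was the lowest of the 3, with 124 to 428 fragments per library. In WT it was at 10.4 and 9.15 TPM in CON, 14.1 and 11.9 after 1 h of FSK, 5.49 and 6.28 after 8 h and 4.13 and 4.01 after 16 h. Its level in Med14 S983A was 8.003 and 9.92 TPM in CON, 11.01 and 11.7 after 1 h of FSK, 3.90 and 4.16 after 8 h and 3.43 and 4.15 after 16 h. The libraries at 1 h were above those of CON and the libraries at 8 and 16 h below them in both genotypes. The early rise was under 1.5-fold, 0.37 ± 0.11 in WT (limma adjusted p 0.00536) and 0.32 ± 0.11 in Med14 S983A (0.0132). The fall reached −1.09 ± 0.11 at 16 h in WT (limma adjusted p 8.54e-10) and −1.05 ± 0.11 in Med14 S983A (1.55e-09). At 8 h it was −0.98 ± 0.11 in Med14 S983A (4.28e-09) and −0.65 ± 0.11 in WT (3.84e-06), where leaving out replicate 1 of WT CON or of WT 8 h FSK ended the call, at −0.56 and −0.57. The WT value at 8 h was −0.40 with edgeR and −0.37 with DESeq2, also under the fold.

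The effector genes Bax and Bak1 encode the pore-forming proteins. Bax (NM_017059, rn6 chromosome 1, 101451801 to 101457208) was at 223 and 230 TPM in WT CON, 118 and 114 after 8 h of FSK and 178 and 176 after 16 h. The Med14 S983A cells held 222 and 214 TPM in CON, 113 and 119 after 8 h of FSK and 196 and 205 after 16 h. The 8 h libraries stood apart from all other groups, of which the lowest library held 176 TPM. The change at 8 h was −0.96 ± 0.05 in WT (limma adjusted p 4.75e-16) and −0.90 ± 0.05 in Med14 S983A (1.36e-15). Bak1 (NM_053812, rn6 chromosome 20, 5609621 to 5618260) went the other way. It was at 79.7 and 77.0 TPM in WT CON, 112 and 110 after 8 h of FSK and 106 and 107 after 16 h, and in Med14 S983A at 62.4 and 72.4, 107 and 97.05, and 94.8 and 87.4 TPM. The FSK libraries at 8 and 16 h were above those of CON in both genotypes. The change was called only at 8 h in Med14 S983A, at 0.59 ± 0.06 (limma adjusted p 2.60e-10), against 0.49 ± 0.06 in WT (8.42e-09), and at 16 h it was 0.44 ± 0.06 in WT (7.58e-08) and 0.43 ± 0.06 in Med14 S983A (1.05e-07). Without replicate 1 of Med14 S983A CON, or of Med14 S983A 8 h FSK, the called value was 0.49 or 0.52 and no longer passed. The ratio of Bax to Bak1 TPM within a library, which no scaling of libraries can alter, was 2.80 and 2.99 in WT CON and 1.05 and 1.04 at 8 h of FSK, and 3.57 and 2.96 against 1.06 and 1.23 in Med14 S983A.

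Of the BH3-only genes, Bcl2l11 (NM_171988, rn6 chromosome 3, 120726906 to 120764192) encodes Bim, which binds all pro-survival proteins. In WT it was at 19.3 and 17.8 TPM in CON, 28.7 and 30.8 after 1 h of Ex-4, 14.6 and 14.9 after 8 h and 10.8 and 12.4 after 16 h. FSK in WT gave 32.1 and 31.1 TPM at 1 h, 16.2 and 15.7 at 8 h and 13.5 and 13.8 at 16 h. The early libraries were above CON and the later ones below it. In Med14 S983A it was at 16.14 and 16.17 TPM in CON, 30.2 and 29.2 after 1 h of Ex-4 and 35.0 and 37.6 after 1 h of FSK. The later Med14 S983A libraries lay between 13.04 and 13.6 TPM under Ex-4 and between 15.7 and 20.7 TPM under FSK. The rise at 1 h of Ex-4 was 0.65 ± 0.06 in WT (limma adjusted p 4.96e-09) and 0.84 ± 0.06 in Med14 S983A (3.80e-11), and at 1 h of FSK 0.74 ± 0.06 (1.69e-10) and 1.12 ± 0.06 (3.70e-14). The fall at 16 h of Ex-4 in WT was −0.63 ± 0.06 (limma adjusted p 1.64e-09), and it was −0.45 after centring each library on its median, −0.32 with ERCC scaling, and −0.58 or −0.55 without replicate 1 of WT CON or of WT 16 h Ex-4, none of which passed the fold. That fall was −0.52 with edgeR, −0.50 with DESeq2 and −0.35 with DESeq2 on ERCC size factors, also under the fold.

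Bbc3 (NM_173837, rn6 chromosome 1, 78261505 to 78267802) encodes Puma, which also binds all pro-survival proteins, and it moved opposite to Bcl2l11 at 1 h. It was counted by 113 to 843 fragments per library. In WT it was at 16.0 and 17.9 TPM in CON, 10.00 and 10.6 after 1 h of Ex-4, 12.01 and 10.8 after 8 h and 14.02 and 14.7 after 16 h. FSK in WT gave 6.02 and 6.94 TPM at 1 h, 6.65 and 6.78 at 8 h and 14.4 and 15 at 16 h. In WT all treated libraries were below both CON libraries, and the 16 h libraries were closest to them. The Med14 S983A cells held 12.1 and 16.7 TPM in CON, 7.27 and 7.90 after 1 h of Ex-4, 12.9 and 12.7 after 8 h and 19.7 and 21.1 after 16 h. FSK in Med14 S983A gave 3.78 and 3.22 TPM at 1 h, 10.3 and 8.73 at 8 h and 15.6 and 14.2 at 16 h. The Med14 S983A libraries were thus below CON at 1 h and at 8 h of FSK, and above both CON libraries at 16 h of Ex-4. The fall at 1 h of Ex-4 was −0.66 ± 0.10 in WT (limma adjusted p 2.62e-05), or −0.58 and under the fold without replicate 2 of WT CON, and −0.82 ± 0.10 in Med14 S983A (1.08e-06). At 1 h of FSK it was −1.26 ± 0.10 in WT (2.32e-10) and −1.76 ± 0.10 in Med14 S983A (2.91e-13). At 8 h of FSK it was −1.22 ± 0.10 in WT (5.90e-11) and, short of the fold, −0.53 ± 0.10 in Med14 S983A (4.39e-05). After 16 h of Ex-4 the rise in Med14 S983A was 0.49 ± 0.10 (2.18e-04), also short of the fold. At 8 h of Ex-4 in WT the change was −0.53 ± 0.10 (1.08e-04).

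The other BH3-only genes moved mainly at 8 h of FSK. Bad (NM_022698, rn6 chromosome 1, 222198534 to 222207453), whose product is held inactive by phosphorylation, was at 126.5 and 125.7 TPM in WT CON, 82.0 and 80.1 at 8 h of FSK and 118 and 114 at 16 h. Its level in Med14 S983A was 119 and 125 TPM in CON, 65.5 and 67.4 at 8 h of FSK and 117 and 118 at 16 h. The 8 h libraries were the lowest of all, with a change of −0.63 ± 0.04 in WT (limma adjusted p 2.21e-13) and −0.86 ± 0.04 in Med14 S983A (3.03e-16). Under the fold were the WT change with edgeR (−0.315) and DESeq2 (−0.28), and the Med14 S983A change with DESeq2 (−0.56). Bid (NM_022684, rn6 chromosome 4, 153443220 to 153465247), which is activated by caspase cleavage, was at 15.6 and 14.5 TPM in WT CON and 8.58 and 8.33 at 8 h of FSK, a change of −0.76 ± 0.08 (limma adjusted p 7.59e-09). That change was −0.51 with edgeR and −0.48 with DESeq2, under the fold. In Med14 S983A Bid was at 16.3 and 16.4 TPM in CON and 15.3 and 13.1 at 8 h of FSK, and 19.4 and 20.3 at 16 h, and no hour was called. Pmaip1 (NM_001008385, rn6 chromosome 18, 62174850 to 62178837), which encodes Noxa, was listed at 0 in all 28 libraries, on a transcript model of 313 bases. It was not tested, and the table alone does not show whether the gene was silent or its reads were not counted.

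Since the deposited TPM are relative to all transcripts of a library, the changes after FSK were also computed with each library centred on its median and with scaling on the ERCC spike-ins. At 8 h of FSK the 10275 genes together had a median of −0.34 in WT and −0.28 in Med14 S983A in TPM, 0.05 and 0.06 after centring and −0.32 and −0.36 with ERCC scaling. Relative to that median the 6 falls at 8 h in WT were smaller. After centring, 2 members were higher there (Mcl1 at 0.84 and Bak1 at 0.88) and 1 lower (Bbc3 at −0.83), while Bcl2l1 at −0.56, Bax at −0.57, Bid at −0.37, Bcl2 at −0.26 and Bad at −0.24 kept their direction without passing the fold. In Med14 S983A, 3 members were higher (Mcl1 at 1.18, Bak1 at 0.93 and Bcl2l11 at 0.63) and 2 lower (Bcl2 and Bcl2l1, both at −0.64). Of all 10275 genes, 1930 were higher and 1848 lower after centring in WT, and 2225 and 2207 in Med14 S983A. With ERCC scaling, 6 members were lower and 0 higher in WT, and 5 lower and 1 higher in Med14 S983A. Of all genes 3464 were lower and 919 higher with this scaling in WT, and 3950 and 998 in Med14 S983A. At 16 h of FSK the median over all genes was −0.20 in WT and −0.10 in Med14 S983A in TPM but 0.16 and 0.12 with ERCC scaling, where Mcl1 (0.71) and Bak1 (0.84) were called higher in WT. In that WT comparison 2272 of all genes were higher and 1169 lower. Bcl2 and Bcl2l1 were called lower at 16 h in WT under each of the 3 scalings, from −0.75 to −1.09 and from −0.68 to −1.07. In Med14 S983A this held for Bcl2, from −0.86 to −1.05, while Bcl2l1 was at −0.55 with ERCC scaling and not called.

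**Figure D3:**
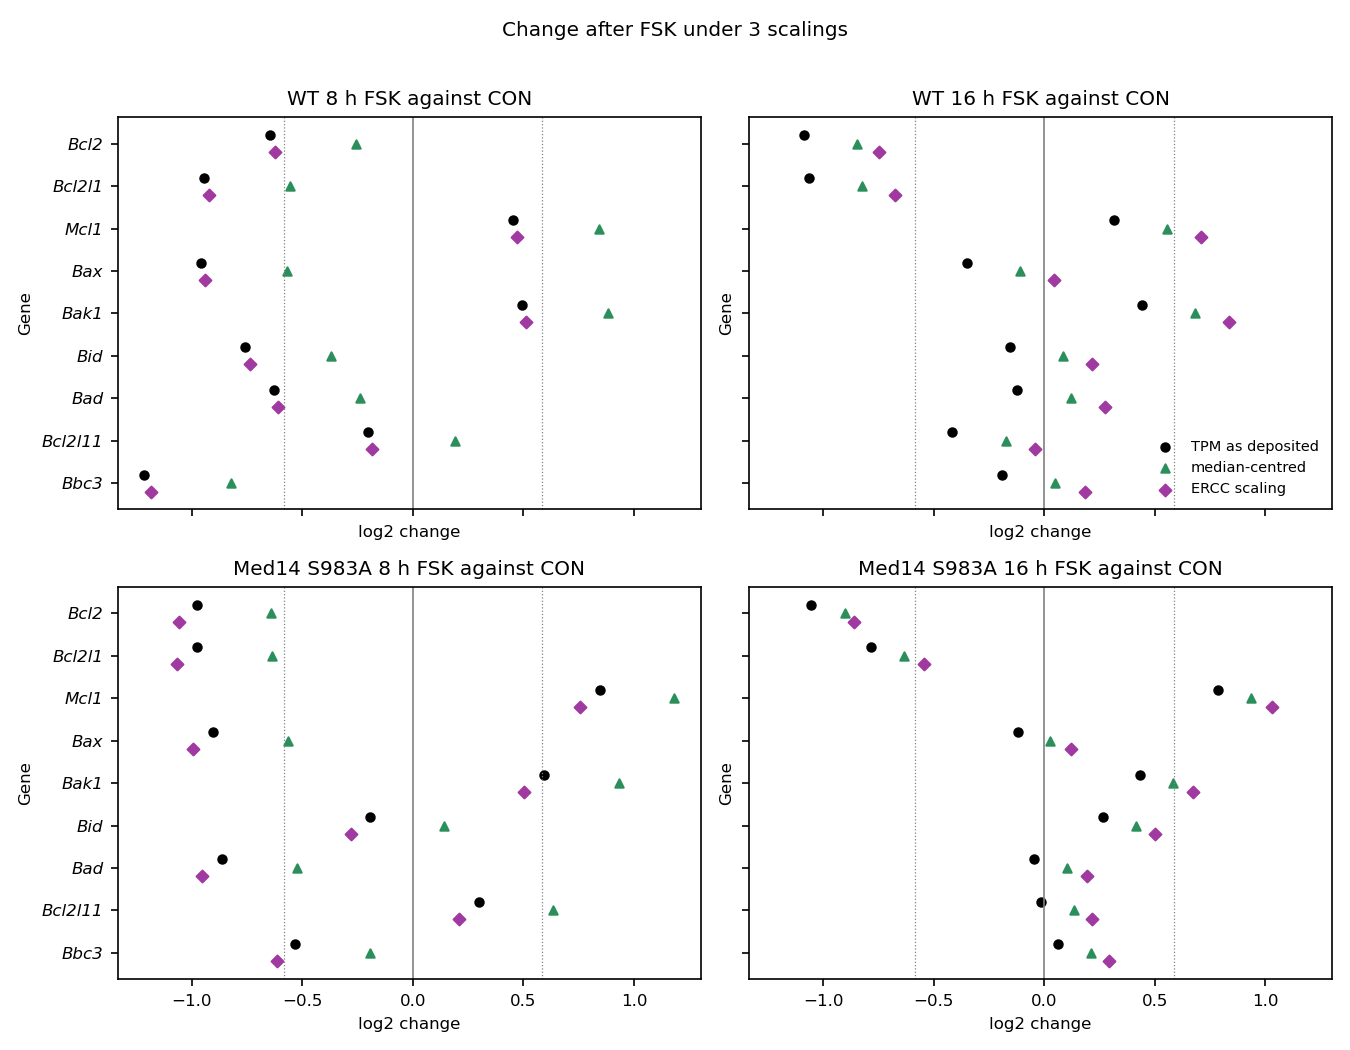
Log2 change after 8 h (left) and 16 h (right) of FSK against CON in WT (top) and Med14 S983A (bottom) for 9 members (rows), with TPM as deposited (black circles), each library centred on its median (green triangles) or ERCC scaling (purple diamonds), and dotted lines at 1.5-fold. At 8 h centring shifts every member to the right, so that Bcl2l1 and Bax in WT end at −0.56 and −0.57, while at 16 h Bcl2 in WT stays beyond 1.5-fold under all 3 scalings.

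Values formed within a library do not depend on such scaling. The share of Mcl1 in the summed TPM of Bcl2, Bcl2l1 and Mcl1 was 50.8% and 51.4% in WT CON, 58.1% and 59.0% after 1 h of FSK, 73.2% and 73.4% after 8 h and 73.9% and 73.8% after 16 h. The Med14 S983A share was 39.6% and 33.5% in CON, 56.5% and 60.04% after 1 h of FSK, 66.8% and 68.6% after 8 h and 63.3% and 64.8% after 16 h. The Mcl1 share was above CON at every hour of FSK in both genotypes, with no overlap of libraries. Under Ex-4 the share lay between 51.3% and 59.9% in WT and between 46.3% and 51.1% in Med14 S983A. The ratio of summed pro-survival to summed effector TPM was 0.497 and 0.487 in WT CON, 0.573 and 0.567 after 1 h of FSK, 0.621 and 0.646 after 8 h and 0.443 and 0.471 after 16 h. The ratio in Med14 S983A was 0.545 and 0.504 in CON, 0.711 and 0.745 after 1 h of FSK, 0.663 and 0.676 after 8 h and 0.501 and 0.514 after 16 h. The ratio was above CON at 1 and 8 h of FSK in both genotypes and below it at 16 h in WT. This ratio covers the members alone. Bcl2l2, another pro-survival gene, is not in the sum. In WT it was at 35.8 and 36.7 TPM in CON and 43.3 and 44.1 after 16 h of FSK. In Med14 S983A CON it was at 63.1 and 62.1 TPM. The effector-like gene Bok is left out too. Whether the ratio keeps its direction with these genes was not tested. After 16 h of Ex-4 the ratio was 0.419 and 0.421 in WT, below CON, and 0.538 and 0.462 in Med14 S983A, around CON. With 2 libraries a group these within-library values were not tested.

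**Figure D4:**
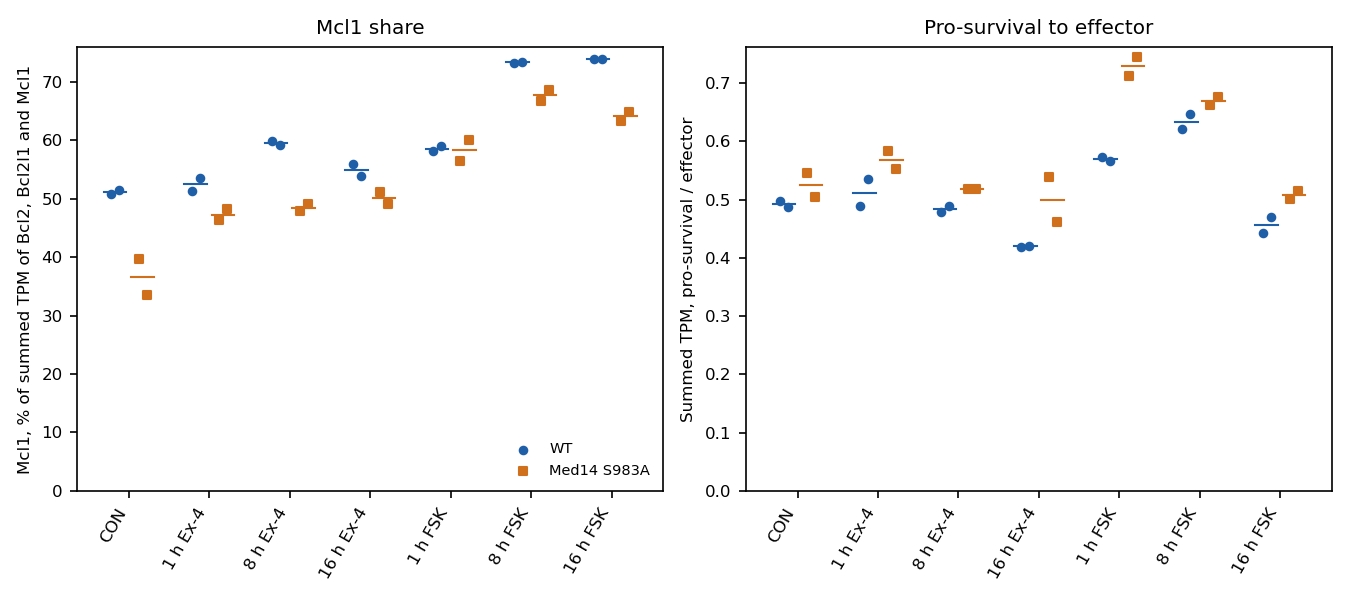
Left, Mcl1 as a percentage of the summed TPM of Bcl2, Bcl2l1 and Mcl1. Right, summed TPM of these 3 divided by the summed TPM of Bax and Bak1. Horizontal axes give the condition, each point is 1 library (WT blue circles, Med14 S983A orange squares), each short line is the mean of 2, and both vertical axes start at 0. In WT the Mcl1 share goes from 51.1% in CON to 73.3% at 8 h and 73.9% at 16 h of FSK.

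The genotypes were compared at CON to find which members differ before any treatment. Limma called 0 of 9 members, against 19.4% of all genes, with 5 members at an unadjusted p under 0.05, and edgeR and DESeq2 with its own size factors also called 0. An adjusted p under 0.05 alone was met by 5 members and by 6802 of all 10275 genes. Bcl2l1 was higher in Med14 S983A by 0.43 ± 0.05 (limma adjusted p 5.41e-09) and Mcl1 lower by −0.48 ± 0.07 (1.25e-06), both under 1.5-fold. With ERCC scaling Bcl2l1 was called, at 0.64, as it was by DESeq2 with ERCC size factors. The replicates of Med14 S983A CON were far apart for Mcl1 (61.6 and 48.4 TPM) and Bbc3 (12.1 and 16.7 TPM), and without replicate 1 of that group Mcl1 was called, at −0.65.

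Whether a response differed between the genotypes was tested as an interaction, the change in Med14 S983A minus the change in WT. For Ex-4, 0 of 9 members were called at 1 h (background 0.672%), 0 at 8 h (2.77%) and 2 at 16 h (7.24%), both higher. At an unadjusted p under 0.05 there were 2 members each at 1 and 8 h, and edgeR and DESeq2 with either size factors called 0. An adjusted p under 0.05 alone was met at these hours by 1 and 0 members, and by 159 and 1910 of all genes. For FSK, 1 of 9 was called at 1 h (1.64%), 1 at 8 h (13.9%) and 0 at 16 h (17%), all higher, with 5 members at an unadjusted p under 0.05 at 16 h and 0 called there by edgeR or DESeq2. At 16 h of FSK an adjusted p under 0.05 alone was met by 5 members and by 5954 of all genes. The called members were Bbc3 at 16 h of Ex-4 (0.72 ± 0.15, limma adjusted p 0.000347), Mcl1 at 16 h of Ex-4 (0.59 ± 0.10, 3.30e-05), Mcl1 at 1 h of FSK (0.69 ± 0.10, 2.63e-05) and Bbc3 at 8 h of FSK (0.68 ± 0.15, 0.000380). None of the 4 passed with ERCC scaling, where they were 0.30, 0.16, 0.42 and 0.57, and where the members called were instead both lower, Bak1 at 16 h of Ex-4 (−0.59) and Bbc3 at 1 h of FSK (−0.74). ERCC scaling moved the median of all genes in this comparison from 0.09 to −0.33 at 16 h of Ex-4 and from −0.01 to −0.27 at 1 h of FSK. With it 138 of all genes were higher and 1703 lower at 16 h of Ex-4, and 48 and 277 at 1 h of FSK. All 4 calls in TPM also rested on the Med14 S983A CON libraries. Without replicate 1 of that group Bbc3 was at 0.50 (Ex-4) and 0.47 (FSK), and without replicate 2 Mcl1 was at 0.42 (Ex-4) and 0.52 (FSK), under the fold in each case. Mcl1 at 16 h of Ex-4 was also under it without replicate 2 of WT 16 h Ex-4 (0.56) or replicate 1 of the matching Med14 S983A group (0.53), and Bbc3 at 8 h of FSK without replicate 1 of Med14 S983A 8 h FSK (0.57). In TPM, Bbc3 at 1 h of FSK differed the other way, at −0.50 ± 0.15 (limma adjusted p 0.0436), under the fold, and it passed with edgeR (−0.66) and DESeq2 (−0.63). The difference for Bcl2l11 was 0.38 ± 0.08 at 1 h of FSK (limma adjusted p 0.00501) and 0.50 ± 0.08 at 8 h (2.46e-05), and for Bid 0.57 ± 0.12 at 8 h (0.000316), all under 1.5-fold.

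Ex-4 and FSK act on the same second messenger and were compared with each other at each hour. At 1 h, Bbc3 was higher under Ex-4 than under FSK in both genotypes, the only 1 of 9 members called, by 0.60 ± 0.10 in WT (limma adjusted p 0.000156, background 1.79%) and 0.93 ± 0.10 in Med14 S983A (1.30e-07, background 3.03%). The WT value did not pass with ERCC scaling or after centring, both at 0.54, nor without replicate 2 of WT 1 h Ex-4 (0.56) or replicate 1 of WT 1 h FSK (0.51). At 8 h, 3 of 9 members were higher under Ex-4 in WT (28.1%), namely Bbc3 by 0.68, Bax by 0.68 and Bad by 0.61. In Med14 S983A 3 were higher and 1 lower at 8 h (36.5%), namely Bad by 0.79, Bcl2 by 0.73, Bax by 0.65 and Mcl1 by −0.61. At 16 h, 2 were higher in WT (18.7%), Bcl2l1 by 0.64 and Bcl2 by 0.63, and 1 in Med14 S983A (16.3%), Bcl2 by 0.68. Leaving out 1 library ended the calls of Bad at 8 h in WT (0.56 without replicate 1 of Ex-4), of Bcl2 at 16 h in WT (0.55 without replicate 2 of Ex-4) and of Bcl2 at 16 h in Med14 S983A (0.57 without replicate 1 of FSK). At 16 h the direction also depended on the scaling. With ERCC scaling 1 member was higher (Bcl2 at 0.59) and 1 lower (Mcl1 at −0.60) in WT, and 0 were higher and 3 lower in Med14 S983A (Bak1 at −0.93, Bid at −0.92 and Mcl1 at −0.77). Of all genes 1048 were then higher and 901 lower in WT, and 528 and 2054 in Med14 S983A. After centring, 1 member was higher (Bcl2l1 at 0.59) and 1 lower (Mcl1 at −0.59) in WT, and 1 higher (Bcl2 at 0.59) and 2 lower (Bak1 and Bid, both at −0.67) in Med14 S983A. Of all genes 1034 were then higher and 877 lower in WT, and 859 and 789 in Med14 S983A. The all-gene median of the 8 h comparison was 0.23 in WT and 0.25 in Med14 S983A, and after centring 0 members were called higher at 8 h in either genotype, while Mcl1 was called lower in WT (−0.66), and Mcl1 (−0.91), Bak1 (−0.77) and Bcl2l11 (−0.86) in Med14 S983A. Centring at 8 h left 1195 of all genes higher and 1058 lower in WT, and 1684 and 1588 in Med14 S983A. With ERCC scaling, in contrast, 4 members were called higher and 0 lower at 8 h in each genotype. Of all genes 3155 were then higher and 367 lower in WT, and 3615 and 510 in Med14 S983A.

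The 16 h groups were compared with the 8 h groups to see which changes went back. Under FSK, 3 of 9 members were higher at 16 h than at 8 h in WT (17.6%), Bbc3 by 1.02 ± 0.10 (limma adjusted p 4.08e-09), Bax by 0.61 ± 0.05 (1.92e-11) and Bid by 0.61 ± 0.08 (7.63e-07). In Med14 S983A they were Bad by 0.81 ± 0.04 (3.36e-15), Bax by 0.78 ± 0.05 (7.18e-14) and Bbc3 by 0.59 ± 0.10 (1.36e-05), again 3 of 9 (27.9%). After centring, Bbc3 was still called in WT (0.87), where Bcl2 was called lower (−0.59), and Bad (0.63) and Bax (0.60) in Med14 S983A. Of all genes 881 were then higher and 608 lower in WT, and 1410 and 1187 in Med14 S983A. With ERCC scaling 4 members were higher and 0 lower under FSK in each genotype. That scaling moved the all-gene median from 0.11 to 0.46 in WT and from 0.15 to 0.46 in Med14 S983A. Of all genes 3796 were then higher and 115 lower in WT, and 4171 and 250 in Med14 S983A. Bcl2l1 and Bcl2 were not called higher at 16 h in either genotype. Under Ex-4, limma called 0 of 9 members in WT (5.58%), with 5 at an unadjusted p under 0.05 and 0 called by edgeR and DESeq2 with either size factors, and 1 in Med14 S983A (3.96%), Bbc3 by 0.63 ± 0.10 (2.64e-05). In WT an adjusted p under 0.05 alone was met by 5 members and by 5313 of all genes. The Bbc3 value in Med14 S983A under Ex-4 was 0.51 with ERCC scaling and not called, and 0.58 without replicate 2 of its 16 h group. Under FSK the calls ended for Bax in WT without replicate 2 at 8 h (0.58), for Bid in WT without replicate 1 at 16 h (0.58), and for Bbc3 in Med14 S983A without replicate 2 at 8 h (0.48) or replicate 1 at 16 h (0.53).

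Over the 14 group means of log2(TPM + 1), Bax and Bad ran together with a Pearson r of 0.91, Bak1 ran against Bcl2l1 at −0.90 and Bbc3 against Bcl2l11 at −0.76. These groups share library scaling and 2 CON groups, so the values describe the pattern alone. Of the 7677 genes whose mean reached 10 TPM, a pattern closely like that of Bcl2 was that of Enpp3 (r 0.97), an ectonucleotidase. Those most like Bcl2l11 were Rbm33 (0.95) and Stk11 (0.92), and those most like Bbc3 were Gpank1 (0.95) and Ptcd1 (0.94).

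The same tests were read for 51 other genes around the family, of which 39 passed the filter. Over the 12 treatments against CON and 39 genes, 48 of 468 values were called higher and 53 lower. Among all genes the share called ran from 2.87% (1 h of Ex-4 in WT) to 46.1% (8 h of FSK in Med14 S983A). At 1 h of Ex-4 in WT 1 of 39 was higher and 1 lower, and at 8 h of FSK 6 were higher and 12 lower in WT and 9 higher and 11 lower in Med14 S983A, where 8.77% of all genes were higher and 34.8% lower in WT, and 11.6% and 34.5% in Med14 S983A. After centring, the split over all 468 values turned to 71 higher and 38 lower. Centring shifted all genes too, at 8 h of FSK in WT from 901 higher and 3579 lower to 1930 and 1848. Of 14 other BCL2 family genes 8 were tested, and at 8 h of FSK in WT 0 were higher and 5 lower, with a median of −0.79 against −0.34 for all genes. Bok, an effector-like gene, fell by 1.42 on the log2 scale there and by 1.82 in Med14 S983A, and Bcl2l14 by 1.81 and 1.35. Bnip3, a mitophagy receptor, rose at 16 h of FSK, by 1.27 in WT and 0.92 in Med14 S983A, whereas Bnip3l fell at 8 h by 0.87 and 1.18. Bcl2l12 fell by 0.88 and 1.17 at 8 h, at levels close to the filter. It went from 1.64 and 1.94 TPM in CON to 0.612 and 0.426 in WT. In Med14 S983A it went from 1.66 and 1.98 TPM to 0.195 and 0.318.

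Among 13 genes of the apoptosome, caspases and mitochondrial channels, 11 were tested, and at 8 h of FSK 1 was higher and 2 lower in WT, with a median of −0.05. Cycs, which encodes the cytochrome c that the pores release, rose at 8 h of FSK by 1.32 in WT and 1.68 in Med14 S983A. Casp2, an initiator caspase, was called lower in 8 of 12 comparisons, from −0.71 at 1 h of Ex-4 to −1.32 at 8 h of FSK in WT. Vdac2, a channel of the outer mitochondrial membrane, rose at 8 h of FSK in Med14 S983A by 0.72, to 324 and 340 TPM. Untreated Med14 S983A held less of it than untreated WT, 217 and 187 against 449 and 462 TPM, a difference of −1.17. All 7 inhibitors of apoptosis and their antagonists were tested, with 0 higher and 2 lower at 8 h of FSK in WT and a median of −0.36. Htra2 fell there by 1.46, Birc3 by 0.98, and Birc5, a mitotic gene as well, fell at 16 h of Ex-4 by 0.99 in WT and 1.21 in Med14 S983A. Birc2 rose at 1 h of FSK by 0.74 in WT and 0.69 in Med14 S983A, and Xiap fell at 16 h of FSK in WT by 0.66.

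Of 7 death receptor genes 5 were tested, and at 8 h of FSK in WT 2 were higher and 1 lower, with a median of 0.21 (all genes −0.34). Cflar, which encodes the inhibitor of caspase activation c-FLIP, rose by 1.305, Tnfrsf1a rose by 0.69 and Fas fell by 0.84. Of 10 regulators of BH3-only genes 8 were tested, with 3 higher and 2 lower at 8 h of FSK in WT and a median of 0.30. Trib3, a stress-induced pseudokinase, was called higher in 12 of 12 comparisons, from 0.73 at 1 h of Ex-4 to 5.01 at 16 h of FSK in WT. Ddit3, the ER stress factor CHOP, was higher in 9 of 12, up to 3.11 at 8 h of FSK in Med14 S983A. Cdkn1a, which encodes the cell cycle inhibitor p21, was higher in 6 of 12. At 1 h of FSK it rose by 2.06 in Med14 S983A and was not called in WT. The rise in Med14 S983A began from a lower level, with a CON mean of 6.144 TPM against 24.06 in WT, a called difference of −1.81. At 1 h of FSK the mean was 28.85 TPM in Med14 S983A, still below the 33.27 TPM of WT. Foxo3, which encodes a factor that binds the FOXO motif, was lower in 4 of 12, at −1.20 at 8 h of FSK in WT. Foxo3 was not called at 1 h. Whether Cdkn1a or Foxo3 has a part in the changes of Bbc3 or Bcl2l11 was not tested.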

How the data were processed

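Bulk RNA-seq of INS-1 cells was analysed in 28 libraries, 2 for each of 14 groups, and groups and replicates were taken from the sample titles. ERCC Mix 1 was present at a set amount per mass of total RNA. Reads were mapped by the authors with STAR 2.5.3a to rn6 joined with the ERCC sequences, and the deposited TPM were made with HOMER 4.11.1 over exons of RefSeq transcripts by strand. The deposited counts are raw counts of the 92 ERCC sequences alone. The study called genes with DESeq2 1.24.0 on ERCC size factors, which needs gene counts.

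The TPM table has 19223 lines. For each symbol the transcript of highest mean was kept (1676 dropped). Genes with a mean under 1 TPM were left out, and log2(TPM + 1) of the other 10275 was fitted with limma 3.58.1 (trend) in R 4.3.3, with all 28 libraries and a mean per group, for 29 contrasts. Tests were two-sided and adjusted by Benjamini-Hochberg within a contrast. Members, lists and tests were chosen with earlier results of these data known. Named genes were all members and, of the other lists, up to 5 called genes per list, largest change first. Some genes that this rule names are not reported here.

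TPM multiplied by length and matched to the ERCC counts gave back fragments. Below 1000 reads, 100% of 135800 values came within 0.05 reads of a whole number once rounding was allowed for, where chance gives 22.7%. They were tested with edgeR 4.0.16 (quasi-likelihood) and DESeq2 1.42.0. Other alternatives were a pseudocount of 0.1, no filter, a mean of at least 5 TPM, median-centring, ERCC scaling, only the libraries of a contrast, the replicate number as a block, each library left out in turn and no fold minimum. Replicates differed by more than counting noise, the chi-square divided by its degrees of freedom being 2.46 to 9.79. Promoters are from RefSeq, build GRCr8, which is not the build of the files.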

Additional observations from a re-analysis of the deposited data

Results flagged for a closer look

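The response of Bbc3 to 16 h of Ex-4 differed between Med14 S983A and WT by 0.719 on the log2 scale, and that of Mcl1 by 0.594. The response of Mcl1 to 1 h of FSK differed by 0.689, and that of Bbc3 to 8 h of FSK by 0.683. Each was singled out because the interaction of genotype and treatment passed the test in limma. At 16 h of Ex-4 Bbc3 was not called in either genotype alone, with 14.02 and 14.7 TPM against 16.0 and 17.9 in CON of WT, and 19.7 and 21.1 TPM against 12.1 and 16.7 in CON of Med14 S983A. None of the 4 passed the fold with ERCC scaling. With DESeq2 and ERCC size factors Mcl1 was at 0.17 and Bbc3 at 0.32 for 16 h of Ex-4.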

How the results depend on the processing

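Of 50 member values called in the 29 comparisons, 20 kept their call under every setting tried, and none changed direction. The 50 calls stood under a pseudocount of 0.1, no filter, a mean of at least 5 TPM, only the libraries of the contrast and the replicate block. Median-centring ended 20 calls, ERCC scaling 12, edgeR 13, DESeq2 15 and DESeq2 with ERCC size factors 9, in each case because the fold fell under 1.5 or, for the genotype difference of Mcl1 and Bbc3 at 16 h of Ex-4, because the adjusted p rose as well, to 0.343 and 0.104 with ERCC scaling and 0.369 and 0.204 with DESeq2 on ERCC size factors. In WT the FSK calls were 1 higher and 9 lower in TPM, 4 and 4 after centring, 3 and 9 with ERCC scaling and 4 and 6 with edgeR. The counts over all genes shifted with the scaling too. At 8 h they were 901 higher and 3579 lower in TPM, 1930 and 1848 after centring and 919 and 3464 with ERCC scaling. At 16 h they were 1062 and 2478, 1723 and 1481, and 2272 and 1169. For Ex-4 against FSK in WT the count fell from 6 to 3 after centring, and in Med14 S983A it rose from 6 to 10 with a pseudocount of 0.1 and split 2 higher and 6 lower after centring, against 5 and 1. For genotype at CON it was 0, and 1 with ERCC scaling and with DESeq2 on ERCC size factors. For the genotype difference in Ex-4 response it was 2 (both higher), 1 higher after centring, with edgeR and with DESeq2, 1 lower and 0 higher with ERCC scaling, and 0 with DESeq2 on ERCC size factors. For the difference in FSK response it was 2 (both higher), 3 with edgeR and with DESeq2 (2 higher, 1 lower), 4 with a pseudocount of 0.1 (3 higher, 1 lower) and 1 lower and 0 higher with ERCC scaling. Without the fold minimum the counts were 16 for Ex-4 and 23 for FSK in WT, 16 and 23 in Med14 S983A, 5 for genotype at CON, 5 and 13 for the genotype differences, 18 and 19 for Ex-4 against FSK in WT and Med14 S983A, 22 for 16 h against 8 h and 304 for the other apoptosis genes. Many of all 10275 genes passed as well, in WT 2592 to 7057 per hour of Ex-4 and 4538 to 8677 of FSK. In Med14 S983A it was 2692 to 6359 and 5388 to 8690, and for genotype at CON 6802. For the genotype differences it was 159 to 4317 (Ex-4) and 600 to 5954 (FSK). The cause of the dependence on settings was not tested.

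Leaving out 1 library gave 2 to 4 calls for Ex-4 and 9 to 10 for FSK in WT, 2 to 3 and 12 in Med14 S983A, 0 to 1 for genotype at CON (1 without replicate 1 of Med14 S983A CON), 1 to 2 and 1 to 3 for the genotype differences in Ex-4 and FSK response, 5 to 6 and 6 to 7 for Ex-4 against FSK, 6 to 7 for 16 h against 8 h and 99 to 110 for the other apoptosis genes. The counts of the genotype differences fell to 1 for Ex-4 without replicate 2 of WT or replicate 1 of Med14 S983A at 16 h, and for FSK without replicate 2 of Med14 S983A CON or replicate 1 of Med14 S983A 8 h FSK. Replicate numbers are shared between groups. Deviations of same-numbered libraries correlated at −0.24 to 0.24 over the 12 pairs of a treated group with CON. A weak shared effect could give such values, and the labels do not say whether same-numbered libraries had a culture or batch in common. With the replicate number as a block the counts were 3 and 10 in WT, 2 and 12 in Med14 S983A and 7 for 16 h against 8 h, as without it, and no call changed. Pmaip1, at 0, could not be tested.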
